A study of Mus musculus with 12 samples.

Results

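The mucosa of the ileum was set against the mucosa of the colon in floxed mice, which carry 2 floxed copies of Ppard (called PPARB in the labels) and no Cre recombinase. The arrays were chosen by their titles and comprised floxed ileum 1 to 3 and floxed colon 1 to 3, 6 of the 12 arrays of the series. The other 6 arrays held ileum and colon mucosa of littermates labelled as knockout, in which Cre under the promoter named FSP (fibroblast-specific protein, made from the gene S100a4) targets the floxed gene. All mice were untreated C57BL6/J males of 4 to 6 weeks. Mucosa was cut from stained sections with a laser dissection microscope, the small amounts of RNA were amplified, and an array that reads exon regions and exon junctions measured it. A single label field names tumours as the sectioned tissue, while titles, tissue field and design name mucosa. The labels do not say that arrays of a group come from separate mice, or whether an ileum and a colon array come from the same mouse, so the p-values cover only how far these arrays spread, part of which may be technical.

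The ileum is the last stretch of the small intestine. Its absorptive cells finish the digestion of peptides and sugars at the brush border, package dietary fat into lipoproteins, and recover bile acids and vitamin B12, and its crypts hold Paneth cells, which secrete antimicrobial peptides. The colon has no villi and normally few or no Paneth cells. Its epithelium absorbs water and salt, exchanges bicarbonate, secretes a thick mucus and meets gases and other products of bacteria.

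A gene's value was the median of its array rows on the log2 scale, and 31276 genes were tested with limma. Differences are ileum minus colon and carry a standard error from that fit, adjusted p-values come from limma with the Benjamini-Hochberg method applied to the whole gene table, and a gene passed at an adjusted p under 0.05. Values of a group are the mean ± SD of 3 arrays. Correlations between arrays across genes, which are not independent replicates, were 0.963 to 0.979 within ileum, 0.964 to 0.974 within colon and 0.948 to 0.969 between the regions. The median gene stood at 3.74, and no detection call was available, so a fold against a value near or below that level may understate the difference. The floxed gene Ppard, a nuclear receptor for fatty acids, was at 6.39 ± 0.21 in ileum and 6.74 ± 0.15 in colon (difference -0.34, adjusted p = 0.915).

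The regional labels were set beside cell type markers. The markers were chosen with earlier results of these data known and include genes with large differences described below, such as Fabp6 and Car1. Their separation is therefore not an independent test of the labels. The 12 markers of small-intestinal absorptive cells averaged 6.79 ± 0.51 in ileum and 3.75 ± 0.23 in colon, and no array of one region reached the other. The 8 measured markers of colon absorptive cells averaged 4.62 ± 0.17 in ileum and 6.64 ± 0.36 in colon, also without overlap. As single genes, 9 of the 12 passed as higher in ileum and 3 of the 8 as lower. Markers of other cells differed less. Pan-epithelial markers averaged 8.19, 7.24 and 8.04 in the ileum arrays and 7.70, 7.04 and 7.04 in the colon arrays, smooth muscle markers 5.52 ± 0.38 and 5.18 ± 0.32, fibroblast markers 5.01 ± 0.16 and 5.28 ± 0.17, and macrophage markers 4.34 ± 0.02 and 4.34 ± 0.04. Among these 4 lists 1 marker passed, Vil1, the brush border protein villin, at 1.46 ± 0.29 (adjusted p = 0.048). Vil1 missed the threshold without ileum 1, ileum 3, colon 2 or colon 3 (adjusted p up to 0.259). The part of these levels in the results that follow was not tested. In such bulk samples, fewer cells of a type and less RNA per cell cannot be told apart.

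Ileum and colon differed in 184 genes, 0.588% of those tested. Of these, 124 genes (0.396%) were higher in ileum, with a median difference of 1.78, and 60 genes (0.192%) were lower, with a median of -1.40. The median over all genes was -0.01. Large differences were mostly on the ileal side, where 51 genes were at least 4-fold higher and 13 at least 16-fold higher in ileum, against 18 and 5 genes as far lower. All 184 genes that passed had ileum and colon arrays that did not overlap, as did 3516 of all genes (11.2%). The rows behind each gene mostly ran the same way: among 181 passing genes with 3 or more rows, a median of 92.3% of the rows had the sign of the gene, and all rows did in 49 genes. Of the 85 passing genes named below, 52 also passed when each of the 6 floxed arrays was left out in turn, and for the other 33 the arrays whose loss ended the call are given.

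**Figure D1:**
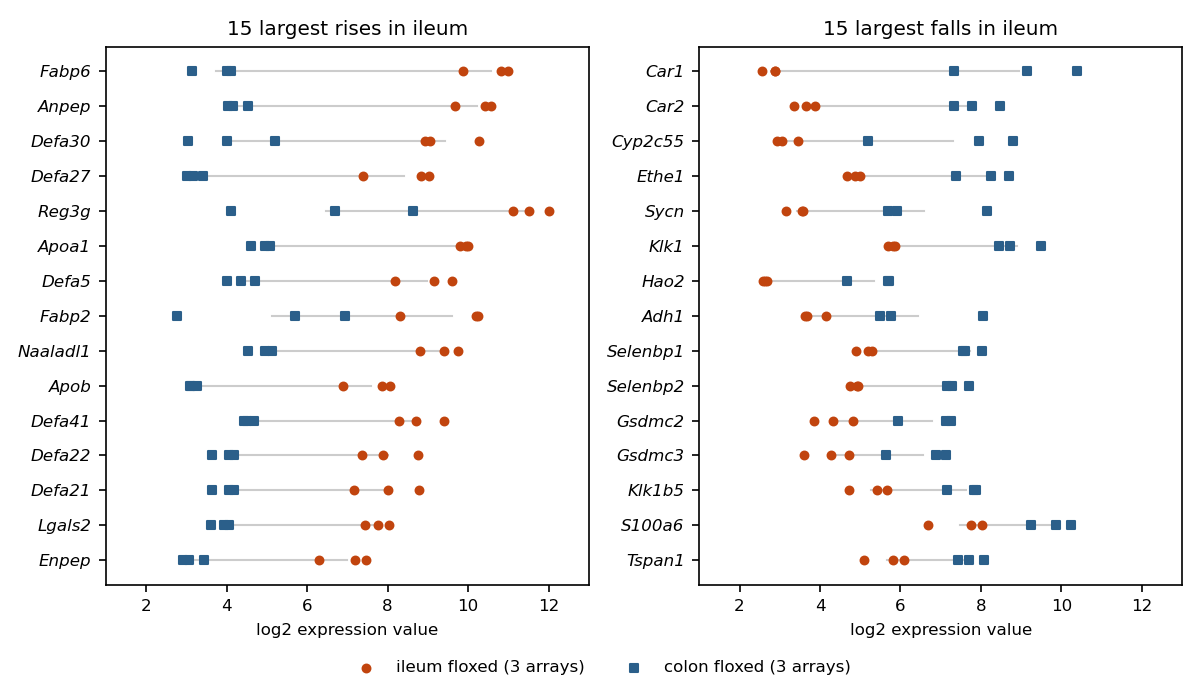
Log2 expression values of the 15 genes with the largest rises (left) and the 15 with the largest falls (right) in floxed ileum among named genes that passed. Circles are the 3 ileum arrays, squares the 3 colon arrays, and a grey line joins the group means. Fabp6 and Car1 show the widest gaps, and the colon squares are spread most widely for Reg3g and Fabp2.

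The promoters of 4 genes that passed are shown, as examples of each direction whose values are given with their groups. In their motifs they are not typical of the genes that passed, as the shares below show. Each run holds the 200 bases before the RefSeq transcription start, 5′ to 3′ on the gene's strand in build GRCm38.p6. Capitals mark short motifs found on either strand, chosen because the factors that bind them are known regulators of enterocyte genes. The letters searched were GTTAAT for HNF1. For CDX factors they were CATAAA. The motif of GATA factors read AGATAA. For HNF4 they were AAGTCCA. None of these words contains another. Sis (chr3:72967864-72968063, minus strand), Lgals2 (chr15:78855530-78855729, minus strand) and Fabp6 (chr11:43601563-43601762, minus strand) were higher in ileum, and Selenbp1 (chr3:94932883-94933082, plus strand) was lower.
Sis: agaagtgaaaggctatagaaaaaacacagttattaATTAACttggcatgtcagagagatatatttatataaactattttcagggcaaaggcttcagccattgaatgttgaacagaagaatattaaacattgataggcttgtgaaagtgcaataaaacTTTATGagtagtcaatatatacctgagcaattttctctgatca
Lgals2: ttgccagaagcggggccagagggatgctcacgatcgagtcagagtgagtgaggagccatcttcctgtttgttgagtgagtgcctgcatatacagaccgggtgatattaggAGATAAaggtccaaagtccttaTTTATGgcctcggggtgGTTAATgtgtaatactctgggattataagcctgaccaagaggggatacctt
Fabp6: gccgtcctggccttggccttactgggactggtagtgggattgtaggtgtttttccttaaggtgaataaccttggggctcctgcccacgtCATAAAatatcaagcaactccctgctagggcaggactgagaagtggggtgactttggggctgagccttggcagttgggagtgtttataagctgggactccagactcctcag
Selenbp1: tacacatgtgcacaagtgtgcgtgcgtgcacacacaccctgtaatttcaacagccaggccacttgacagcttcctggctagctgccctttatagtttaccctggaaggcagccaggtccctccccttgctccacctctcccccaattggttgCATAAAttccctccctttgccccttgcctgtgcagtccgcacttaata

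In Sis the HNF1 motif began 165 bases and the CDX motif 43 bases before the start. In Lgals2 the HNF1 motif began at 51, the CDX motif at 68 and the GATA motif at 90 bases. Fabp6 and Selenbp1 held the CDX motif only, at 111 and 48 bases. The shares that follow count a longer window, from 250 bases before to 50 bases after the start. Promoter sequences were matched for 90 of the genes higher in ileum, 46 of those lower and 18801 of all measured genes. The HNF1 motif was in 16.7% of the promoters higher in ileum, 10.9% of those lower and 7.38% of all. For HNF4 the shares were 8.89%, 2.17% and 4.56%, for GATA 17.8%, 10.9% and 11.2%, and for CDX 13.3%, 13% and 11.9%. These are matches of letters in a window, given as a description without a test. Every promoter printed above held the CDX motif, against shares of 13.3% and 13%. The printed promoters are therefore not typical of the genes that passed.

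Bile acid handling held the gene with the largest difference among those that passed. Fabp6, which carries bile acids inside ileal cells, had values of 10.99, 9.87 and 10.83 in the ileum arrays, against 4.00, 4.11 and 3.13 in the colon arrays. It was 113-fold higher in ileum, a difference of 6.82 ± 0.34 (adjusted p = 5.95e-07), and 8 of 8 of its rows were higher there. Slc51a and Slc51b, the subunits of the exporter that releases bile acids toward the blood, rose by 3.17 ± 0.50 (adjusted p = 0.00958) and 2.58 ± 0.45 (adjusted p = 0.0222). The apical uptake transporter Slc10a2 had values of 7.11, 6.16 and 7.01 in the ileum arrays, against 5.70, 2.93 and 4.70 in the colon arrays; the groups did not overlap, and the difference of 2.31 ± 0.59 (adjusted p = 0.182) did not pass. Slc10a2 passed with array background as a covariate (0.044) and without colon 1 (0.0498), adjusted p in parentheses. Of 9 measured genes of bile acid transport and of the response to the bile acid receptor FXR, 3 passed, all higher, with a list median of 0.45. The hormone Fgf15, through which the ileum signals to the liver in response to bile acids, was at 4.09 ± 0.72 in ileum and 4.13 ± 0.26 in colon, and the gene of the receptor itself, Nr1h4, at 4.82 ± 0.66 in ileum and 4.38 ± 0.57 in colon. Slc51a did not pass without ileum 1 or ileum 3 (adjusted p up to 0.0645). Slc51b lost the call without ileum 1, ileum 3, colon 2 or colon 3 (adjusted p up to 0.13).

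Fat packaging had the second highest list median. Of 16 measured genes, 11 rose and none fell, and the list median was 1.65. Apoa1, the main protein of high-density lipoprotein, had values of 9.99, 9.81 and 9.95 in the ileum arrays, against 5.07, 4.6 and 4.96 in the colon arrays, a difference of 5.04 ± 0.25 (adjusted p = 5.95e-07). Apob, the scaffold of chylomicrons, had values of 8.05, 6.89 and 7.85 in the ileum arrays, against 3.25, 3.08 and 3.12 in the colon arrays, a difference of 4.44 ± 0.32 (adjusted p = 2.18e-05). In both genes every ileum array lay far above every colon array, and the colon values of Apob were below the median gene. Mttp, which loads lipid onto Apob, rose by 2.70 ± 0.24 (adjusted p = 0.000109). Npc1l1, the sterol uptake protein of the brush border, rose by 3.41 ± 0.27 (adjusted p = 6.79e-05), and Apoa4, an apolipoprotein of chylomicrons, by 2.94 ± 0.26 (adjusted p = 0.000113). The fatty acid carrier Fabp2 had values of 10.25, 8.31 and 10.21 in the ileum arrays, against 6.93, 2.77 and 5.70 in the colon arrays. Its colon arrays disagreed with each other by more than 4 units, and the difference was 4.45 ± 0.84 (adjusted p = 0.0331). Fabp2 missed the threshold without ileum 1, ileum 3, colon 2 or colon 3 (adjusted p up to 0.19).

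Enzymes that cut peptides at the brush border and in the cytosol had the highest list median of all lists examined, 1.78, and 11 of 15 measured members rose, with none lower. Anpep, aminopeptidase N, had values of 10.43, 9.68 and 10.56 in the ileum arrays, against 4.54, 4.15 and 4.03 in the colon arrays. The difference of 5.98 ± 0.27 (adjusted p = 5.67e-07), 63.2-fold, had the smallest p of all genes. Naaladl1, a peptidase of the folate hydrolase family, was at 9.32 ± 0.47 in ileum and 4.87 ± 0.31 in colon, a difference of 4.45 ± 0.25 (adjusted p = 1.52e-06). Enpep, aminopeptidase A, rose by 3.86 ± 0.32 (adjusted p = 8.52e-05) and the meprin subunit Mep1b by 2.92 ± 0.38 (adjusted p = 0.00216). The carriers that take up the products moved less far. Of 13 amino acid and peptide transporters 6 rose (list median 1.15), led by the neutral amino acid transporter Slc6a19 at 2.48 ± 0.22 (adjusted p = 0.000123), the peptide transporter Slc15a1 at 2.01 ± 0.37 (adjusted p = 0.027) and the cystine and basic amino acid transporter Slc7a9 at 1.99 ± 0.26 (adjusted p = 0.00216). Slc15a1 did not pass without ileum 1, ileum 3, colon 1 or colon 3 (adjusted p up to 0.159).

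Sugar digestion rose in 3 of 11 genes, with a list median of 0.55. Sis, sucrase-isomaltase, had values of 6.55, 4.72 and 5.92 in the ileum arrays, against 2.62, 2.52 and 2.52 in the colon arrays, a difference of 3.18 ± 0.38 (adjusted p = 0.00119). Mgam, maltase-glucoamylase, was at 8.08 ± 0.74 in ileum and 5.46 ± 0.39 in colon, a difference of 2.62 ± 0.41 (adjusted p = 0.0094), and the sodium-glucose transporter Slc5a1 at 7.57 ± 0.36 in ileum and 5.71 ± 0.21 in colon, a difference of 1.87 ± 0.30 (adjusted p = 0.0103). Trehalase, Treh, was dim in both regions, at 3.71 ± 0.15 in ileum and 3.02 ± 0.05 in colon (difference 0.69, adjusted p = 0.305). Among 20 carriers of nucleosides, phosphate, sulfate, vitamins and metals 3 rose. They were the sulfate transporter Slc13a1 (2.96 ± 0.38, adjusted p = 0.00218), the nucleoside transporter Slc28a2 (2.81 ± 0.31, adjusted p = 0.000757) and the phosphate transporter Slc34a2 (2.40 ± 0.32, adjusted p = 0.00282), while the list median was 0.17. The chloride-bicarbonate exchanger Slc26a3 of that list had values of 4.41, 4.19 and 4.24 in the ileum arrays, against 5.80, 6.54 and 4.87 in the colon arrays, groups that did not overlap, and a difference of -1.46 (adjusted p = 0.237). In the vitamin B12 list, Cubn, the receptor of the B12 complex, was the only one of 7 genes to pass, with 6.78, 5.39 and 6.63 in the ileum arrays, against 3.26, 3.05 and 3.37 in the colon arrays and a difference of 3.04 ± 0.31 (adjusted p = 0.000335). Mgam and Slc5a1 lost the call without ileum 1, ileum 3, colon 2 or colon 3 (adjusted p up to 0.0646 and 0.0707).

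**Figure D2:**
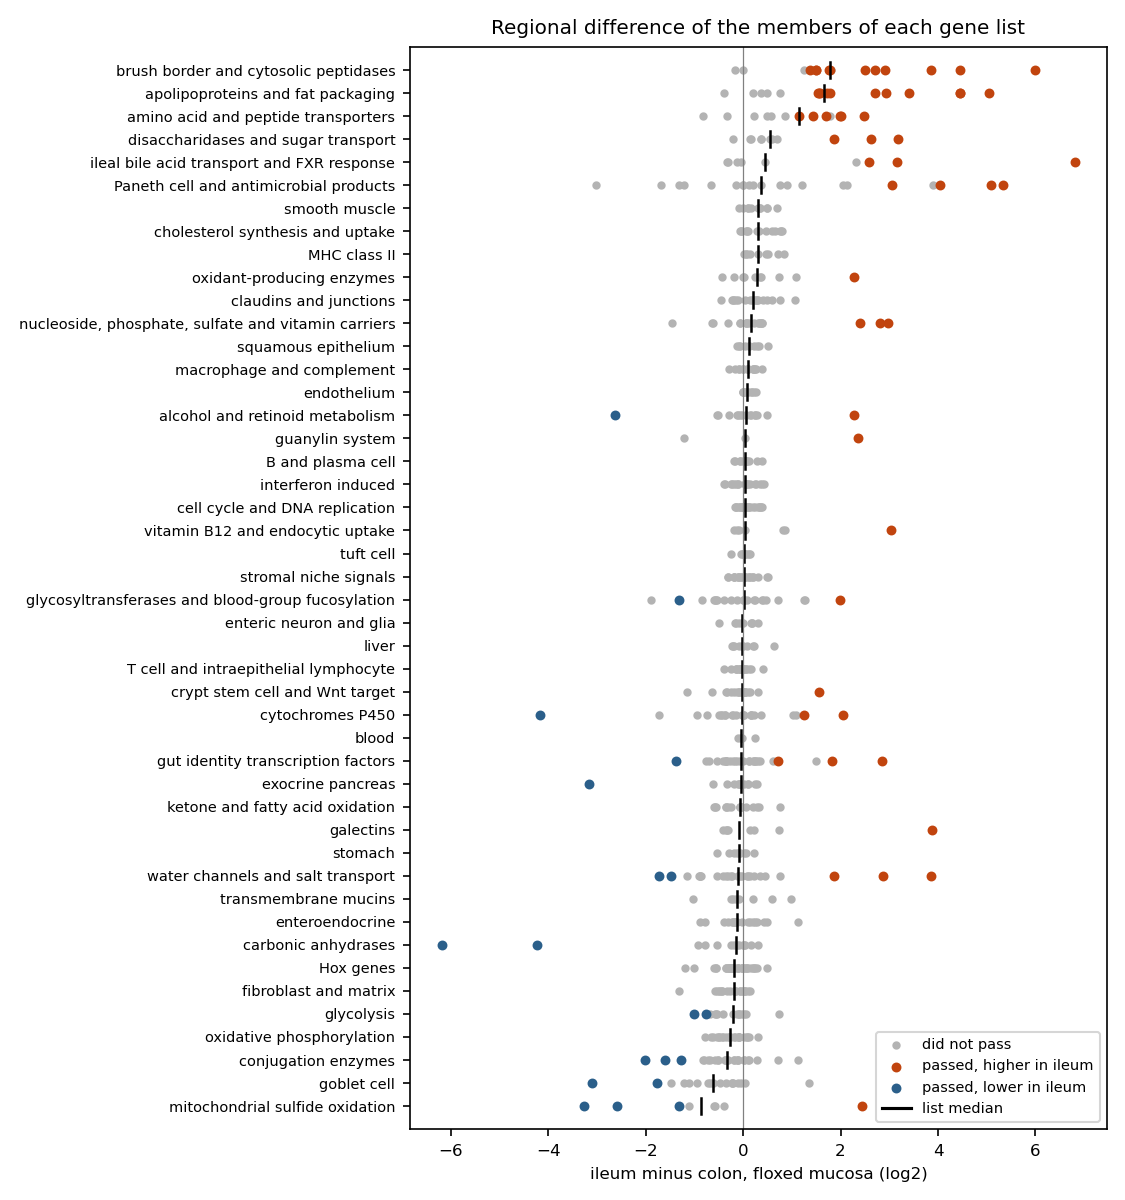
Ileum minus colon differences (log2) of every measured member of 46 gene lists, ordered by list median (black bar). Orange points passed higher in ileum, blue points passed lower and grey points did not pass. Peptidases, fat packaging and amino acid transporters lie farthest to the right, and sulfide oxidation farthest to the left, with medians of 1.78, 1.65, 1.15 and -0.86.

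Alpha-defensins, antimicrobial products of Paneth cells, were among the largest ileal rises. The alpha-defensin family had 26 measured genes and pseudogenes, of which 15 passed, all higher in ileum, and the family median was 2.55. Defa30 had values of 10.26, 8.93 and 9.05 in the ileum arrays, against 5.20, 4.00 and 3.05 in the colon arrays, a difference of 5.33 ± 0.71 (adjusted p = 0.00266). Defa27 followed with 5.22 ± 0.52 (adjusted p = 0.000267), Defa5 with 4.63 ± 0.54 (adjusted p = 0.00107), Defa41 with 4.27 ± 0.54 (adjusted p = 0.00196), Defa22 with 4.03 ± 0.49 (adjusted p = 0.00133) and Defa21 with 4.02 ± 0.55 (adjusted p = 0.00314). These genes are near-identical copies read by at most 5 rows each, so the array can share signal among them and single members are uncertain. Defa21 and Defa22 had the same colon mean and SD, 3.965 ± 0.284, so their calls are not fully separate. Reg3g, a lectin that binds gram-positive bacteria, had values of 11.52, 11.12 and 12.02 in the ileum arrays, against 8.63, 4.10 and 6.70 in the colon arrays, and its relative Reg3b 11.93, 12.06 and 12.46 in the ileum arrays, against 10.36, 4.35 and 10.03 in the colon arrays. In both, every ileum array lay above every colon array and colon array 2 was the lowest; Reg3g rose by 5.08 ± 0.93 (adjusted p = 0.0285), and Reg3b, with 3.90 ± 1.16 (adjusted p = 0.33), did not pass. Lysozyme, Lyz1, at 6.69 ± 0.76 in ileum and 4.65 ± 0.28 in colon did not pass either (2.05, adjusted p = 0.237), nor did the defensin-activating protease Mmp7, at 4.05 ± 0.26 in ileum and 3.15 ± 0.46 in colon (0.90, adjusted p = 0.832). Lyz1 passed with only the 6 floxed arrays (0.0429), adjusted p in parentheses. Over the whole list of Paneth cell and antimicrobial products, 4 of 21 passed higher and the median was 0.36. The 6 measured Paneth cell markers averaged 6.01, 4.75 and 5.09 in the ileum arrays and 4.36, 4.23 and 3.72 in the colon arrays. As single genes, 1 of the 6 passed, the alpha-defensin Defa22. Reg3g missed the threshold without ileum 1, ileum 2, ileum 3, colon 2 or colon 3 (adjusted p up to 0.141).

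On the colon side the widest gaps were in carbonic anhydrases, which interconvert carbon dioxide and bicarbonate. Car1 had values of 2.55, 2.88 and 2.88 in the ileum arrays, against 10.39, 7.33 and 9.16 in the colon arrays, 72.9-fold lower in ileum (-6.19 ± 0.56, adjusted p = 0.000126). Car2 had values of 3.88, 3.66 and 3.35 in the ileum arrays, against 8.47, 7.78 and 7.33 in the colon arrays, 18.7-fold lower (-4.23 ± 0.29, adjusted p = 1.49e-05). Car1 lay below the median gene in every ileum array and Car2 in all but 1, and both lay above it in every colon array. The other 14 measured family members did not pass, among them Car4, a membrane-bound form, with -0.78 (adjusted p = 0.914), and the family median was -0.10. Of 27 genes of water and salt transport 2 fell, the water channel Aqp8 (-1.73 ± 0.34, adjusted p = 0.0399) and the sodium-proton exchanger Slc9a3 (-1.48 ± 0.29, adjusted p = 0.0405). The 3 that rose were Clca4b (3.85 ± 0.51, adjusted p = 0.00243), Clca4a (2.86 ± 0.57, adjusted p = 0.0427), both of the family of chloride channel regulators, and the anion exchanger Slc26a6 (1.86 ± 0.18, adjusted p = 0.000218). Aqp8 did not pass without ileum 1, ileum 2, ileum 3, colon 1 or colon 2 (adjusted p up to 0.234). Slc9a3 lost the call without ileum 1, ileum 2, ileum 3, colon 1 or colon 3 (adjusted p up to 0.174). Clca4a missed the threshold without ileum 1, ileum 3, colon 2 or colon 3 (adjusted p up to 0.249).

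Oxidation of sulfide, a bacterial gas, gave the lowest list median, -0.86 over 8 genes. Ethe1, the mitochondrial persulfide dioxygenase, had values of 5.0, 4.66 and 4.88 in the ileum arrays, against 8.71, 7.39 and 8.25 in the colon arrays, a difference of -3.27 ± 0.30 (adjusted p = 0.000142). Selenbp1, which oxidises methanethiol, had values of 4.91, 5.29 and 5.20 in the ileum arrays, against 8.02, 7.55 and 7.61 in the colon arrays, a difference of -2.59 ± 0.21 (adjusted p = 6.79e-05). Sqor, the quinone reductase that starts sulfide oxidation, fell by 1.32 on the log2 scale (adjusted p = 0.0399). Suox, which oxidises sulfite to sulfate at the end of the pathway, ran the other way, with 7.96, 7.64 and 7.48 in the ileum arrays, against 5.42, 4.93 and 5.40 in the colon arrays and a rise of 2.44 ± 0.21 (adjusted p = 8.52e-05). None of the 4 genes had overlapping groups. Selenbp2, a near-identical copy of Selenbp1, fell by 2.51 on the log2 scale, and the array can share signal between them. Sqor did not pass without ileum 1, ileum 2, ileum 3, colon 1 or colon 3 (adjusted p up to 0.187).

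Genes of detoxification were split. Cyp2c55, a cytochrome P450 of the colon, had values of 3.05, 3.45 and 2.93 in the ileum arrays, against 8.80, 5.19 and 7.96 in the colon arrays; colon array 2 was lowest of its group, and the difference was -4.18 ± 0.70 (adjusted p = 0.0147). Cyp4f14 and Cyp4v3, fatty acid hydroxylases, rose by 2.05 ± 0.35 (adjusted p = 0.0191) and 1.24 ± 0.23 (adjusted p = 0.0301), and these 3 were the ones to pass among 25 genes of the P450 list (median -0.03). All 3 of 26 conjugation enzymes that passed were lower in ileum: the glutathione transferase Gstm1 (-2.01 ± 0.31, adjusted p = 0.00745), the sulfotransferase Sult1a1 (-1.61 ± 0.29, adjusted p = 0.0247) and the glucuronosyltransferase Ugt1a6a (-1.27 ± 0.19, adjusted p = 0.00599). The list median was -0.32. In alcohol and retinoid metabolism, Rbp2, the retinol carrier of small-intestinal cells, rose by 2.27 ± 0.27 (adjusted p = 0.00109), and the alcohol dehydrogenase Adh1 fell to 4.14, 3.67 and 3.62 in the ileum arrays, against 5.77, 8.04 and 5.50 in the colon arrays (-2.62 ± 0.53, adjusted p = 0.0455). Hao2, a peroxisomal hydroxyacid oxidase, was at 2.63 ± 0.04 in ileum and 5.35 ± 0.60 in colon, a difference of -2.72 ± 0.35 (adjusted p = 0.00216). Cyp2c55 lost the call without ileum 1, ileum 3, colon 1 or colon 3 (adjusted p up to 0.0904). Cyp4f14 missed the threshold without ileum 1, ileum 3, colon 2 or colon 3 (adjusted p up to 0.117). Cyp4v3 did not pass without ileum 1, ileum 3, colon 1, colon 2 or colon 3 (adjusted p up to 0.14). Sult1a1 lost the call without ileum 1, ileum 2, ileum 3, colon 1 or colon 3 (adjusted p up to 0.115). Adh1 missed the threshold without ileum 1, ileum 2, ileum 3 or colon 1 (adjusted p up to 0.199).

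Of 19 genes of goblet cells, the mucus-secreting cells, 2 fell and none rose, the list median was -0.61, and the 7 goblet cell markers averaged 8.32 ± 0.39 in ileum and 8.93 ± 0.41 in colon. The tissue kallikrein Klk1 had values of 5.87, 5.69 and 5.82 in the ileum arrays, against 9.48, 8.71 and 8.46 in the colon arrays, a difference of -3.09 ± 0.34 (adjusted p = 0.000744). Its relative Klk1b5 had a difference of -2.35 ± 0.35 (adjusted p = 0.00633), and members of this family can share signal. Creb3l1, a transcription factor of secretory cells, fell by 1.76 on the log2 scale (adjusted p = 0.00133). Muc2, the gel-forming mucin, was at 9.16, 8.62 and 9.18 in the ileum arrays, against 11.47, 9.05 and 10.86 in the colon arrays; the groups overlapped and the difference of -1.47 ± 0.48 (adjusted p = 0.435) did not pass. Muc2 passed without colon 2 (0.0106) and without both arrays numbered 2 (0.0302), adjusted p in parentheses. Retnlb, a goblet cell protein that kills bacteria, was at 2.72, 3.09 and 2.92 in ileum, against 6.92, 4.61 and 6.27 in colon, and -3.02 (adjusted p = 0.086) did not pass. Retnlb passed with only the 6 floxed arrays (0.0343), with the mean over rows (0.0497), with array weights (0.0117), with array background as a covariate (0.0194) and without colon 2 (0.0406), adjusted p in parentheses. Further falls belonged to no list. Gsdmc2 and Gsdmc3, pore-forming proteins of the gasdermin C group, fell by 2.45 (adjusted p = 0.00933) and 2.36 (adjusted p = 0.0125) on the log2 scale. The calcium-binding protein S100a6 (-2.29 ± 0.36, adjusted p = 0.00969) and the tetraspanin Tspan1 (-2.08 ± 0.37, adjusted p = 0.0232) were also lower in ileum. Gsdmc2 did not pass without ileum 1 or colon 2 (adjusted p up to 0.0553). Gsdmc3 lost the call without ileum 1, colon 1 or colon 2 (adjusted p up to 0.0689). S100a6 missed the threshold without colon 1 or colon 2 (adjusted p up to 0.0515). Tspan1 did not pass without ileum 1, ileum 2, colon 1, colon 2 or colon 3 (adjusted p up to 0.107).

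Sycn encodes syncollin, a protein of zymogen granules best known from the pancreas, and fell to 3.59, 3.15 and 3.54 in the ileum arrays, against 5.92, 8.15 and 5.70 in the colon arrays (-3.16 ± 0.56, adjusted p = 0.0234). No other of the 14 pancreas genes passed, and 6 enzyme markers of exocrine pancreas averaged 3.33 ± 0.12 in ileum and 3.36 ± 0.17 in colon, below the median gene in both. Sycn lost the call without ileum 1, ileum 2 or ileum 3 (adjusted p up to 0.0965). Glycolysis had 2 falls among 15 genes, the glucose transporter Slc2a1 (-1.01 ± 0.14, adjusted p = 0.00412) and the phosphofructokinase Pfkl (-0.75 ± 0.14, adjusted p = 0.0257), with a list median of -0.21. The list of oxidative phosphorylation subunits had a median of -0.27 and none of its 24 members passed (2 at an unadjusted limma p under 0.05, which 6.27% of all genes reached). Pfkl missed the threshold without ileum 1, ileum 3, colon 1, colon 2 or colon 3 (adjusted p up to 0.151).

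Transcription factors of gut identity differed in few members, 3 higher and 1 lower of 28 (median -0.04). Maf, a factor of mature enterocytes, had values of 5.98, 5.91 and 6.64 in the ileum arrays, against 3.17, 3.24 and 3.57 in the colon arrays, a difference of 2.85 ± 0.34 (adjusted p = 0.00126). Creb3l3, a membrane-bound factor that regulates apolipoprotein and other lipid genes, had values of 6.49, 6.05 and 6.77 in the ileum arrays, against 4.64, 4.72 and 4.48 in the colon arrays, a difference of 1.83 ± 0.21 (adjusted p = 0.000811). Gata5 rose by 0.71 ± 0.14 (adjusted p = 0.0493), close to the smallest difference that passed, and Tfcp2l1, a grainyhead-like factor, fell by 1.38 on the log2 scale (adjusted p = 0.00196). Hnf4g, a nuclear receptor of enterocytes, had values of 6.18, 5.49 and 6.32 in the ileum arrays, against 4.88, 4.11 and 4.51 in the colon arrays, without overlap, and 1.5 (adjusted p = 0.0763) did not pass. Hnf4g passed with the mean over rows (0.0219), with exon regions only (0.0107), with quantile normalization (0.0139), with array weights (0.0112), among genes with a mean above 5 (0.0458), with array background as a covariate (0.00264) and without ileum 2 (0.0437), adjusted p in parentheses. Its relative Hnf4a was at 6.90 ± 0.30 in ileum and 6.63 ± 0.31 in colon. The intestinal factor Cdx1 was at 6.21 ± 0.22 in ileum and 6.73 ± 0.19 in colon (-0.53, adjusted p = 0.461). Gata4, known as a factor of the proximal small intestine, was at 4.87 ± 0.26 in ileum and 4.87 ± 0.34 in colon, and Gata6, present along the gut, at 5.65 ± 0.20 in ileum and 5.53 ± 0.10 in colon. Gata5 did not pass without ileum 1, ileum 2, ileum 3, colon 1, colon 2 or colon 3 (adjusted p up to 0.224).

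Hox genes, which encode position along the body axis, gave no call among 36 measured, with 2 at an unadjusted limma p under 0.05 (all genes 6.27%) and a list median of -0.18. Hoxa11 had values of 4.35, 4.24 and 4.23 in the ileum arrays, against 4.91, 5.84 and 5.07 in the colon arrays, without overlap and with 8 of 8 rows lower in ileum, a difference of -1.0 (adjusted p = 0.247). Hoxb13, a marker of the most distal gut, was at 3.92, 4.74 and 3.38 in ileum, against 4.61, 7.02 and 3.98 in colon, with colon array 2 far above the rest (-1.19, adjusted p = 0.9). Mir196a-1, a microRNA gene that lies within the Hoxb cluster, was lower in ileum, with 3.44, 4.09 and 4.13 in the ileum arrays, against 5.48, 5.04 and 4.73 in the colon arrays and a difference of -1.2 ± 0.24 (adjusted p = 0.0406). It is a small RNA outside the rule for naming and was singled out after its value was seen; it rests on 1 row, which reads the gene and not the mature RNA. Its mature 5′ strand is shown from RefSeq (GRCm38.p6, chr11:96265187-96265208, plus strand), with the seed, bases 2 to 8, in capitals, because its known targets include Hox transcripts. Mir196a-1 lost the call without ileum 1, ileum 2, ileum 3, colon 1 or colon 2 (adjusted p up to 0.216).
mmu-miR-196a-5p: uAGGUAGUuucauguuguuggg

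Lgals2, a galectin that binds galactosides, was the only one of 8 galectins to pass, with 7.75, 7.44 and 8.02 in the ileum arrays, against 4.05, 3.62 and 3.93 in the colon arrays and a difference of 3.87 ± 0.33 (adjusted p = 8.52e-05). Olfm4 passed alone among 19 genes of the list of crypt stem cells and Wnt targets (1.57 ± 0.29, adjusted p = 0.0312). The median of that list was -0.02. The hormones of the guanylin system, which act on the receptor Gucy2c to drive fluid secretion, had differences of opposite sign. Guca2b, uroguanylin, had values of 8.55, 7.98 and 8.56 in the ileum arrays, against 7.0, 5.11 and 5.90 in the colon arrays, a rise of 2.36 ± 0.41 (adjusted p = 0.0223). Guca2a, guanylin, had values of 8.49, 8.09 and 8.24 in the ileum arrays, against 10.16, 8.55 and 9.77 in the colon arrays, without overlap, and the difference of -1.22 ± 0.33 (adjusted p = 0.232) did not pass. Guca2a passed without colon 2 (0.00707) and without both arrays numbered 2 (0.0209), adjusted p in parentheses. Gucy2c was at 5.54 ± 0.44 in ileum and 5.49 ± 0.59 in colon. Olfm4 missed the threshold without ileum 1, ileum 2, ileum 3, colon 1, colon 2 or colon 3 (adjusted p up to 0.18). Guca2b did not pass without ileum 1, ileum 3, colon 2 or colon 3 (adjusted p up to 0.122).

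Of the 46 lists 23 gave no call with limma, and 27 of their 347 measured genes had an unadjusted p under 0.05, where 6.27% of all genes did. They covered the Hox genes, oxidative phosphorylation, fatty acid oxidation and ketone bodies, cholesterol synthesis, the cell cycle, junctions, transmembrane mucins, enteroendocrine and tuft cells, stromal signals, fibroblasts and matrix, smooth muscle, nerve, endothelium, T, B and macrophage genes, MHC class II, interferon-induced genes, and liver, stomach, squamous and blood genes. The nearest to a call was Postn, periostin, a matrix protein of fibroblasts, with 3.85, 3.38 and 3.48 in the ileum arrays, against 4.99, 4.88 and 4.77 in the colon arrays and -1.31 (adjusted p = 0.0627); its groups did not overlap. Postn passed with only the 6 floxed arrays (0.0105), with quantile normalization (0.0395), with array weights (0.0122), among genes with a mean above 4 (0.0424), among genes with at least 3 rows (0.0457) and with array background as a covariate (0.00722), adjusted p in parentheses.

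The 6 arrays of knockout mucosa share no sample with the floxed arrays and were compared in the same fit. Both comparisons use the same estimate of each gene's spread, so the calls in floxed and knockout mucosa are not independent. With only the 6 floxed arrays in the fit, 98 genes were higher and 49 lower in ileum. In knockout mucosa, 247 genes passed between ileum and colon (0.79% of those tested). Of the 184 genes that passed in floxed mucosa, 183 had the same sign in knockout mucosa and 148 also passed there, 80.4% of the floxed and 59.9% of the knockout calls. The exception in sign was the predicted gene Gm11917, named after its values were seen, with 0.26 in knockout and -0.92 in floxed mucosa. Gm11917 lost the call without ileum 1, ileum 2, ileum 3, colon 1, colon 2 or colon 3 (adjusted p up to 0.0984). Fabp6 differed by 7.32 in knockout and 6.82 in floxed mucosa, and Car1 by -7.08 in knockout and -6.19 in floxed mucosa. The difference between the 2 regional differences was tested for every gene, and none passed with limma (0%). An unadjusted limma p under 0.05 was reached by 775 of 31276 genes, fewer than the 1564 expected if no gene differed. Among the 184 genes it was reached by 9. Lgals2 was one of those, with 5.85 in knockout and 3.87 in floxed mucosa (unadjusted p = 0.00101, adjusted p = 0.9999). The test between the regional differences carries the spread of both comparisons and is less precise than either. The simulation described below covered the floxed contrast only. The lack of calls therefore does not show that the regional differences are the same.

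**Figure D3:**
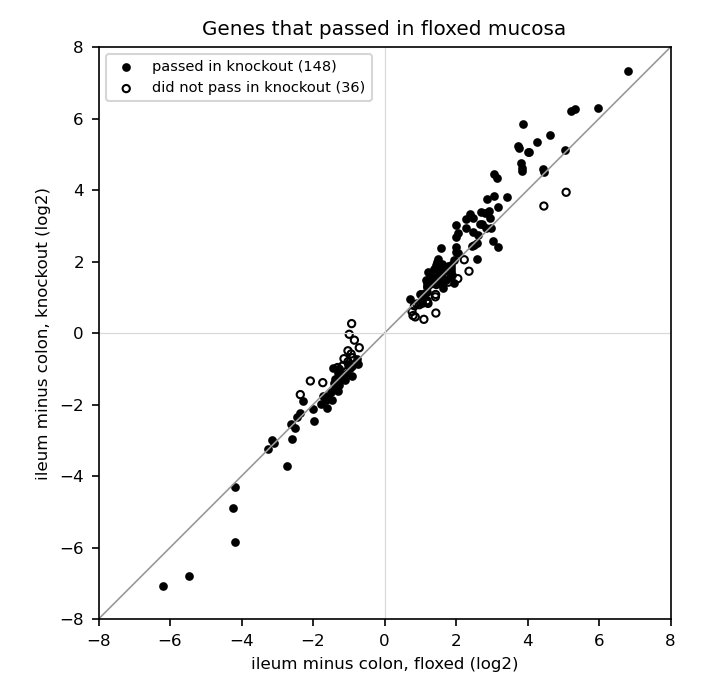
Ileum minus colon differences (log2) of the 184 genes that passed in floxed mucosa, with the floxed difference on the horizontal and the knockout difference on the vertical axis. Filled points (148) also passed in knockout mucosa, open points did not, and the line marks equal differences. 183 of the 184 genes have the same sign on both axes.

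Arrays numbered 2 stood apart in both regions. Ileum array 2 had the highest mean of background control rows of the 6 floxed arrays, 7.06 against 6.6 and 6.6 in the other ileum arrays. Colon arrays 1, 2 and 3 were at 6.60, 6.84 and 6.97 by the same measure. Ileum array 2 also had the lowest mean of small-intestinal enterocyte markers of the ileum arrays, 6.23 against 7.23 and 6.90. Limma's array weights were lowest for ileum array 2 (0.673) and colon array 2 (0.699) among the floxed arrays, against 0.933 to 1.91 in the other 4. Without ileum array 2, 151 genes were higher and 40 lower in ileum. The rows of colon array 2 had the smallest interquartile range of the 6 floxed arrays, 2.81 against 2.95 to 3.02, and the highest median of negative control rows, 2.71 against 2.54 to 2.58. Reg3b, Reg3g, Fabp2, Slc51a and Slc10a2, with higher means in ileum, were lower in it than in the other colon arrays. So were Car1, Cyp2c55, Muc2 and Retnlb, with higher means in colon. Car1 was at 7.33 in it, against 10.39 and 9.16. Hoxb13, Sycn and Adh1 were higher in it. Slc51a was at 3.73 in this array, against 5.90 and 5.72 in the other two, and Hoxb13 at 7.02, against 4.61 and 3.98. Without colon array 2, 65 genes were higher and 54 lower in ileum, against 124 and 60 with all arrays. Fewer passed without ileum array 1, 64 higher and 30 lower, or ileum array 3, 60 and 33. Of the 30 genes with the largest rises and falls, 24 passed without colon array 2.

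**Figure D4:**
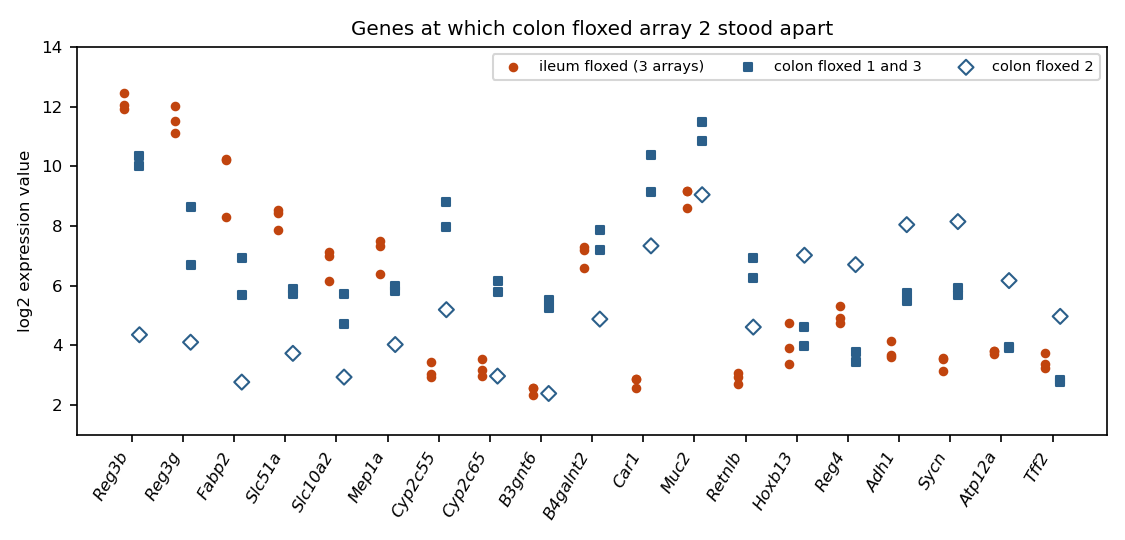
Log2 expression values of 19 genes picked because colon floxed array 2 (open diamonds) lay away from colon floxed arrays 1 and 3 (squares), with the 3 floxed ileum arrays as circles. Values such as 4.35 for Reg3b and 7.02 for Hoxb13 in that array lie outside the range of the other colon arrays.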

How the data were processed

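RNA of laser-dissected mucosa was measured on 12 arrays, 3 per group, and samples were grouped by their titles. The deposited table holds log2 expression values; per the submitters' processing notes the authors used RMA and Partek, with no version, role or order given, and which steps RMA covered is not stated. No further normalization was applied. Of 725678 rows, 437027 were exon regions, 282044 junctions and 6607 controls. The platform annotation, which can be old, named a single gene for 580167 rows, which were used, more than 1 for 18694 and no gene for 120210. Of their symbols 29760 were current, 1584 were updated through a RefSeq table and 39 were kept. A gene's value was the median of its rows (a median of 11 rows, 1 row in 7532 genes), which can hide a change in a few exons. Group means were fitted over the 12 arrays in limma 3.58.1 (R 4.3.3), with 8 residual and 4.72 prior degrees of freedom, two-sided tests and Benjamini-Hochberg adjustment over all genes at 0.05. The number of arrays limits the precision. In simulated data on 31276 genes the floxed contrast passed 74% of changes of 1 and 97% of changes of 2 on the log2 scale. That simulation drew independent normal noise at each gene's fitted spread and held no array that stood apart. Its shares therefore do not give the share of real changes found in these arrays, where a difference of 3.90 for Reg3b did not pass.

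The genes named were the 15 largest rises and 15 largest falls among passing genes without overlap, leaving out predicted genes, small RNAs and receptor families, then up to 4 passing members of each of 46 lists (up to 2 of smallest p where none passed), all Hox, guanylin and gut transcription factor genes, and the cell type markers. Of these lists' 761 genes 715 were measured. The comparison, lists, markers and naming rule were chosen with earlier results of these data known. Promoters and mature microRNAs came from RefSeq tables on GRCm38.p6, the build behind the array rows was not given in the sources used here, and motifs were searched on both strands. Alternatives varied the row summary, filters, scaling, fit, pairing by replicate number and the arrays included. The numbers in the titles could pair ileum and colon arrays. The deviations of same-numbered floxed arrays from their group means correlated at 0.26, 0.10 and -0.13, and those of knockout arrays at 0.531, -0.047 and 0.220. Arrays of different numbers correlated at -0.335 to 0.251 in floxed and -0.512 to 0.406 in knockout mucosa. These values did not settle the pairing, so none was used in the main fit, and counts with the number as a block are given below.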

Additional observations from a re-analysis of the deposited data

How the results depend on the processing

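Without a single floxed array the genes higher in ileum numbered 60 to 151, the lower ones 30 to 54 and those also passing in knockout mucosa 85 to 164, against 124, 60 and 148. The total fell by over 1.5 times without ileum 1 (64 higher, 30 lower), ileum 3 (60 and 33), colon 2 (65 and 54) or colon 3 (72 and 44). Without colon 1 only the lower genes fell by over 1.5 times, to 31. Without both arrays numbered 2, tried after seeing the data, 95 were higher and 34 lower. Array weights gave 193 higher, and array background as a covariate gave 207 higher and 127 lower. A test against a 1.5-fold difference gave 43 higher, 12 lower and 53 also passing in knockout mucosa. With the replicate number as a block, 119 were higher and 41 lower over the 6 floxed arrays, and 164 and 68 over all 12; with it Slc10a2 (0.0466 and 0.0047), Lyz1 (0.0145 and 0.0295), Hnf4g (0.0191 and 0.0154) and Postn (0.0212 and 0.0239) passed over 6 and over 12 arrays, and Guca2a (0.0498) and Retnlb (0.0381) over 12 (adjusted p in parentheses); not every array correlated best with its own number. The cause of these shifts was not tested. The other settings stayed within 1.5 times of each count, and the interaction gave none under any setting run. Of 85 passing genes named, 36 passed under all 21 settings, and 7 more under the 20 that kept them, their means being 5 or lower. Signs turned in 4 named genes, of which 3 did not pass. Fgf15 turned to 0.10 with the mean over rows, 0.14 with exon regions only and 0.037 with the background covariate, and ran from -0.31 to 0.37 without single arrays (turning without ileum 3 or colon 2). Gata4 turned to 0.0196 with the covariate and ran from -0.16 to 0.18 without single arrays (turning without ileum 1, ileum 3 or colon 3). Gucy2c turned to -0.0273 with exon regions only, -0.0475 with the covariate and -0.0043 without both arrays numbered 2, and ran from -0.26 to 0.34 without single arrays (turning without ileum 1, ileum 3 or colon 2). The predicted gene Gm11917 turned to 0.22 with exon regions only. Dim genes limit what the array can show, since no detection call was available.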

Other observations

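Several genes that the text above has not described, chosen after their values were seen, also passed. Abcg5 and Abcg8, which form the exporter that returns plant sterols to the lumen and lie next to each other, rose by 1.53 ± 0.21 (adjusted p = 0.00314) and 1.30 ± 0.17 (adjusted p = 0.00256). The neighbouring apolipoprotein genes, Apoa1, Apoc3 and Apoa4, were all higher in ileum, with Apoc3, an inhibitor of lipoprotein clearance, at 1.56 ± 0.25 (adjusted p = 0.0106). Soat2, which esterifies cholesterol, rose by 1.2 ± 0.20 (adjusted p = 0.0145). Ccl25, the chemokine that draws lymphocytes to the small intestine, had values of 6.18, 5.52 and 5.38 in the ileum arrays, against 3.91, 4.16 and 4.12 in the colon arrays, without overlap (1.63 ± 0.30, adjusted p = 0.0257). Ada, adenosine deaminase, rose by 2.46 ± 0.27 (adjusted p = 0.000744), and the inducible nitric oxide synthase Nos2, alone among 10 oxidant-producing enzymes, by 2.27 ± 0.28 (adjusted p = 0.00167). Apoc3 missed the threshold without ileum 3 or colon 3 (adjusted p up to 0.0746). Soat2 did not pass without ileum 1, ileum 3, colon 1 or colon 2 (adjusted p up to 0.0994). Ccl25 lost the call without ileum 1, ileum 3, colon 1, colon 2 or colon 3 (adjusted p up to 0.146).

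Genes of sialic acid and glycan synthesis ran both ways, with 1 of 23 listed glycosyltransferases higher and 1 lower (median 0.01). Gne, which starts sialic acid synthesis, had values of 4.93, 4.50 and 5.01 in the ileum arrays, against 6.55, 6.15 and 5.97 in the colon arrays, and fell by 1.41 on the log2 scale (adjusted p = 0.00745). The sialyltransferases St3gal3 (-1.51 ± 0.23, adjusted p = 0.00881) and St6galnac6 (-1.31 ± 0.15, adjusted p = 0.00109) were lower and St3gal4 (2.00 ± 0.34, adjusted p = 0.0174) was higher in ileum. Fa2h, a fatty acid hydroxylase, was lower at -1.97 ± 0.26 (adjusted p = 0.00256). The predicted gene Gm5843, a neighbour of Car1, had values of 3.11, 2.88 and 2.56 in the ileum arrays, against 9.82, 6.64 and 8.53 in the colon arrays (-5.48 ± 0.61, adjusted p = 0.000744), and whether its rows read transcripts of Car1 was not tested. 2610528A11Rik, for which no role is given here, was at 4.66 ± 0.22 in ileum and 8.85 ± 0.61 in colon (-4.19 ± 0.41, adjusted p = 0.000267). St3gal3 missed the threshold without ileum 1 (adjusted p = 0.0601). St3gal4 did not pass without ileum 1, ileum 3, colon 2 or colon 3 (adjusted p up to 0.0987).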
